A study of Homo sapiens with 12 samples.

Results

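The genes described here are 50 nucleolar ribosome biogenesis genes, measured by RNA sequencing of polyadenylated RNA from HEK293T cells. They were given as a list of symbols and found among 41878 gene rows, where the row with the largest total was to be used if a symbol had several. All 50 were among the 18030 genes that passed the expression filter and were tested. RSL1D1, WDR3, POP1 and CCDC86 were selected on their measured fold changes in earlier results from these same libraries. The values of the 4 are therefore given below as a description and support nothing by themselves. The question was whether their rise was shared by the other 46. These were listed by function, but with earlier results of these data known, so they are not a fully independent comparison.

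HEK293T is an established line of human embryonic kidney origin that carries the SV40 large T antigen. The cells of all groups were transfected, with 1 µg of a control vector or of a TRPML3 plasmid. TRPML3 is the cation channel of endosomal and lysosomal membranes that MCOLN3 encodes. The cells were then either kept in 10% serum (fed) or left in 0% serum for 4 h to induce autophagy (starved). This gave 4 groups of 3 biological replicates, called vector fed, vector starved, TRPML3 fed and TRPML3 starved, and the share of cells that took up plasmid is not given in the sources used here.

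Ribosomes are assembled in the nucleolus. RNA polymerase I transcribes a long precursor ribosomal RNA, guide ribonucleoproteins of the box C/D and box H/ACA classes modify it, and the small subunit processome and a series of large subunit assembly factors fold, cleave and load it with ribosomal proteins. Many genes for these proteins are known targets of MYC, which binds the E-box CACGTG, and the pathway is known to respond to growth factors and nutrients.

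Promoter sequences from RefSeq (GRCh38.p14, 250 bases before to 50 after each gene's start) were found for 40 of the 50 members. The letters CACGTG, which read the same on both strands, were present in 18 of these 40 (45.0%), in 29.4% of 109 promoters of other ribosome biogenesis genes, in 12.0% of 13013 promoters of tested genes and in 8.77% of all 27305 promoters in the table. In all 18 members the motif began within 50 bases of the start, against 40.7% of the 1562 tested genes that had it. The 5 windows below belong to members named in the starvation results, are written 5′ to 3′ on the strand of the gene, and show the motif in capitals.
CCDC86: cggcgggggctgCACGTGcgcaggggtgtg
GNL3: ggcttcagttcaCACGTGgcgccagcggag
LTV1: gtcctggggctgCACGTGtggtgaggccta
PES1: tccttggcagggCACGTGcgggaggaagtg
UTP20: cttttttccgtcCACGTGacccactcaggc
These 30-base windows lie at chr11:60842076-60842105 (+), chr3:52686026-52686055 (+), chr6:143843354-143843383 (+), chr22:30591880-30591909 (-) and chr12:101280083-101280112 (+). In CCDC86 the motif began 25 bases and in UTP20 10 bases before the RefSeq start, and in GNL3, PES1 and LTV1 it began 7, 14 and 29 bases after it. Of the other picked genes, the WDR3 promoter did not hold CACGTG, and the table had no promoter for RSL1D1 and POP1. The WDR3 promoter held CCGGAAG, a motif of the ETS family of transcription factors, which was searched on both strands and does not overlap CACGTG. It is shown, on either strand, in capitals in the 120 bases at chr1:117929619-117929738 (+).
WDR3: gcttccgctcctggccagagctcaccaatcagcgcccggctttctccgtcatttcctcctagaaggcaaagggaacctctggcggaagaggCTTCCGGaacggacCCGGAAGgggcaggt
CCGGAAG was present in 16 of the 40 member promoters (40.0%), in 40.4% of those of other ribosome biogenesis genes, in 19.9% of those of tested genes and in 12.2% of all promoters. A match of letters is a description of the sequence and does not show binding.

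Library totals ran from 33101540 to 43700547 counts. MCOLN3 served as the check of the plasmid labels and had between 9.30 and 18.4 CPM (counts scaled to the same normalized library total) in the 6 vector libraries and between 4926 and 58200 CPM in the 6 TRPML3 libraries. TRPML3 fed libraries had 6208, 4926 and 39950 CPM and TRPML3 starved libraries 41340, 58200 and 16890, so the plasmid transcript was low in fed replicates 1 and 2. It does not check the fed and starved labels, and no gene was used to check them. Of 12 genes known from this line, 11 exceeded 1 CPM in every library, and PAX2 had at least 0.796 CPM. Of 15 markers of other cell types, 4 exceeded 1 CPM in any library and 1, COL1A1, exceeded 5 CPM, with a range of 0.229 to 21.1 CPM. PTPRC of immune cells stayed at or under 0.0983 CPM and UMOD of the adult nephron had no count in any of the 12 libraries. The summed level of the 15 markers was 7.56 to 22.5 CPM with vector when fed and 6.80 to 24.8 when starved, and with TRPML3 it was 7.17 to 28.4 when fed and 16.8 to 19.4 when starved.

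The members differed widely in level. Scaled by exon length (mean CPM per kilobase of exon over the 12 libraries, for the 48 members whose identifier is in GENCODE 29), NPM1, a histone and ribosomal protein chaperone of the granular nucleolus, had the highest level with 1037, followed by NCL, the RNA-binding protein nucleolin, with 483. DDX21, an RNA helicase that supports RNA polymerase I transcription, had 151, GNL3, the GTPase nucleostemin, 146 and NOLC1, a chaperone of box-type ribonucleoproteins, 138. The lowest were NOC3L, a large subunit transport factor, with 1.44 and POLR1A, the largest subunit of RNA polymerase I, with 2.40. FBL and NOC4L were counted under identifiers that the primary assembly of GENCODE 29 does not hold, so their position is not given, and reads may have been shared with another copy of each gene.

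The members also varied strongly between replicates of one group. The SD of log2 CPM within groups had a median of 0.676 over the 50 members, against 0.423 over the 10247 tested genes with a mean of at least 6.42 CPM, the mean of the lowest member. The highest library exceeded the lowest by less than 2-fold in 12 members, among them DDX10, NHP2, WDR36 and DKC1, and by more than 10-fold in 12 others, among them TSR1, NOP14 and WDR3. NOP14, a factor of the small subunit processome, had 71.9, 2.67 and 4.96 CPM with vector when fed and 1.03, 1.79 and 9.77 when starved, and 22.9, 3.31 and 26.5 CPM with TRPML3 when fed and 54.2, 9.28 and 53.0 when starved. Its 3 replicates disagreed in every group.

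Replicate 3 of both fed groups stood apart from replicates 1 and 2 for these genes. Expressed as log2 CPM minus the gene's own mean over the 12 libraries, the median over the 50 members was -0.32, -0.35 and 0.25 in vector fed replicates 1, 2 and 3, and -0.28, -0.43 and 0.43 in TRPML3 fed replicates 1, 2 and 3. In starved libraries it was 0.18, 0.23 and 0.18 with vector and 0.33, 0.25 and 0.26 with TRPML3. The median member was thus below its mean in 4 fed libraries and above it in all 6 starved libraries and in both fed replicate 3 libraries.

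**Figure D1:**
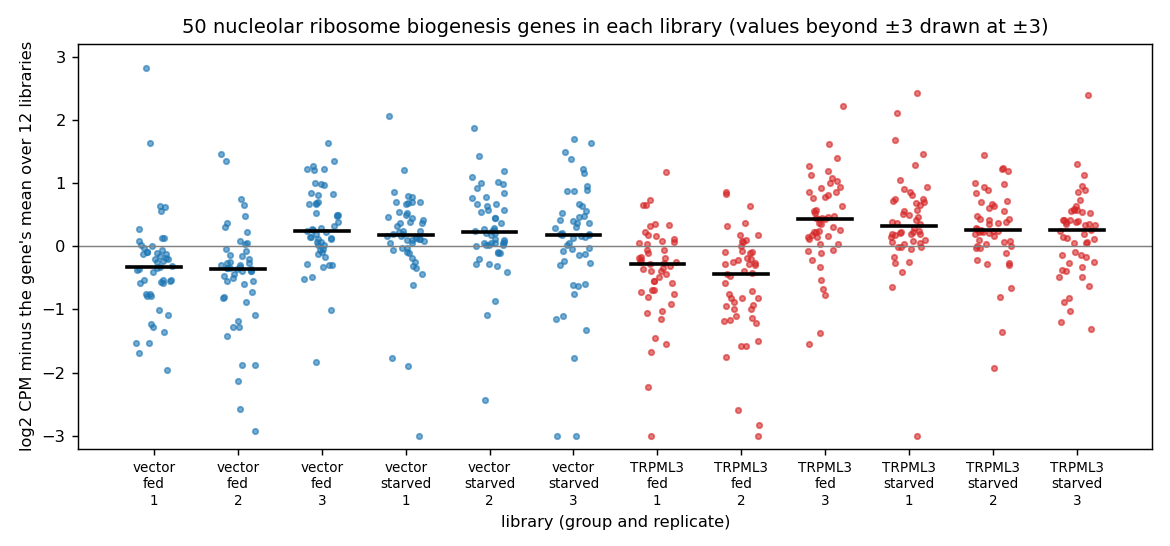
Each point is 1 of the 50 genes in 1 library, as log2 CPM minus that gene's mean over the 12 libraries (vertical axis), with libraries along the horizontal axis, vector in blue and TRPML3 in red. The black bar is the median of the 50, which lies between -0.43 and -0.28 in replicates 1 and 2 of the fed groups and between 0.18 and 0.43 in the other 8 libraries.

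In vector fed cells, replicate 3 was the highest of the 3 libraries for 35 of the 50 members, against 36.7% of all genes tested. In TRPML3 fed cells it was the highest for 40 members, against 37.2% of all genes. Both held for 30 members (60.0%), for 63 of 121 other ribosome biogenesis genes (52.1%) and for 22.2% of all genes. In starved cells replicate 3 was the highest for 24 members with vector (38.3% of all genes) and 15 with TRPML3 (38.9%). For 14 members (28.0%, against 21.4% of all genes) it was the lowest in both starved groups, among them DDX18, TSR1, URB2, UTP20 and POLR1A. The share of counts from mitochondrial genes was 4.83 to 5.70% in the 4 replicate 3 libraries and 1.05 to 4.40% in the other 8, and its part in these differences was not tested. MCOLN3 moved with the members in TRPML3 cells, with its lowest levels in fed replicates 1 and 2. In vector cells it stayed at or under 18.4 CPM, and the median member was higher in fed replicate 3 than in fed replicates 1 and 2. The part of MCOLN3 in these differences was not tested. In both libraries labelled fed replicate 3 the median member was above its level in the 3 starved libraries of the same plasmid. In vector fed replicate 3, with 0.247, it was below the 0.326, 0.253 and 0.255 of the TRPML3 starved libraries. Whether the labels of these 2 fed replicate 3 libraries are right was not tested. Every starvation value below takes the labels as given. Results for starvation are therefore given with all 12 libraries and without replicate 3 of every group.

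RSL1D1 encodes a nucleolar protein with a ribosomal L1 domain (ENSG00000171490, GENCODE 29 on GRCh38, chr16:11833850-11851585, minus strand). It had 68.7, 60.9 and 74.8 CPM with vector when fed and 278, 322 and 423 when starved, and 443, 416 and 507 CPM with TRPML3 when fed and 654, 532 and 343 when starved. The 3 vector fed libraries were low and the 9 others were at least 278 CPM, so that vector fed did not overlap with any other group, while vector starved, TRPML3 fed and TRPML3 starved overlapped with one another. The log2 fold change was 2.74 ± 0.25 (SE) for TRPML3 in fed cells and 2.32 ± 0.24 for starvation in vector cells, which share the vector fed libraries. In the comparisons without them it was 0.58 ± 0.23 for TRPML3 under starvation, and 0.16 ± 0.23 for starvation under TRPML3. RSL1D1 was the only one of the 50 members past an adjusted p of 0.05 by edgeR's quasi-likelihood test, with 0.00695 for TRPML3 in fed cells (0.0111% of all genes tested passed) and 0.0296 for starvation in vector cells (0.00555% passed). When the replicate number entered the fit as a block, these became 0.101 and 0.318, and 0.0% of all genes passed for either. Among 15 fits without 1 library, or without 1 replicate number in all groups, the former passed in 10 and the latter in 2. By the same test, TRPML3 in fed cells had an adjusted p of 0.0512, 0.108 and 0.0738 without vector fed replicates 1, 2 and 3. Without replicate 1 or replicate 2 of every group it was 0.321 and 0.737. The log2 fold changes stayed between 2.66 and 2.81 and between 2.14 and 2.45 in those fits. Fits without 1 starved library kept both fed groups whole, and TRPML3 in fed cells stayed at 2.74 in them. Averaged over fed and starved cells, the log2 fold change for TRPML3 was 1.66 ± 0.17 with an adjusted p of 0.0107 (0.0111% of all genes passed), or 0.125 with the block.

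WDR3, a WD-repeat protein of the small subunit processome (ENSG00000065183, chr1:117929720-117966542, plus strand), behaved differently. With vector it had 267, 218 and 120 CPM when fed and 359, 314 and 266 when starved. TRPML3 starved libraries had 372, 200 and 211 CPM, and TRPML3 fed libraries had 0.168, 0.364 and 399 CPM, from 7, 14 and 12241 counts. Replicates 1 and 2 of that group were the lowest and replicate 3 the highest of all 12 libraries, so that the groups overlapped. The log2 fold change for TRPML3 in fed cells was -0.60 with all libraries and -9.82 without replicate 3 of every group. For SPAG17, whose exons overlap those of WDR3 by 1759 bases on the opposite strand, the same 3 libraries had 89, 52 and 93 counts, and for the neighbouring gene GDAP2 4238, 4325 and 2709. Whether reads of WDR3 were counted at another place in the genome was not tested.

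POP1, a protein shared by RNase P and RNase MRP, which cleaves the precursor ribosomal RNA (ENSG00000104356, chr8:98117297-98159834, plus strand), had 9.41, 11.3 and 70.6 CPM in vector fed and 10.4, 10.2 and 55.5 in TRPML3 fed libraries. Starved libraries had 44.5, 48.4 and 68.3 CPM with vector and 51.2, 42.6 and 45.6 with TRPML3. Replicates 1 and 2 of both fed groups were the 4 lowest libraries, and each fed replicate 3 library was above the 3 starved libraries of its plasmid. Averaged over both plasmids, the log2 fold change for starvation was 0.85 ± 0.57 with all libraries and 2.19 ± 0.15 without replicate 3.

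CCDC86, a coiled-coil protein of the nucleolus (ENSG00000110104, chr11:60842071-60851081, plus strand), had 64.0, 62.3 and 132 CPM in vector fed and 67.3, 59.0 and 120 in TRPML3 fed libraries. Starved libraries had 141, 148 and 169 CPM with vector and 150, 141 and 145 with TRPML3. Fed replicate 3 was again above replicates 1 and 2, but all 6 starved libraries were above all 6 fed ones. CCDC86 was the only member of which this held in that direction, as it did for 0.749% of all genes tested. Its log2 fold change for starvation was 0.83 ± 0.33 in both plasmid groups, and 0.83 ± 0.23 on average.

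**Figure D2:**
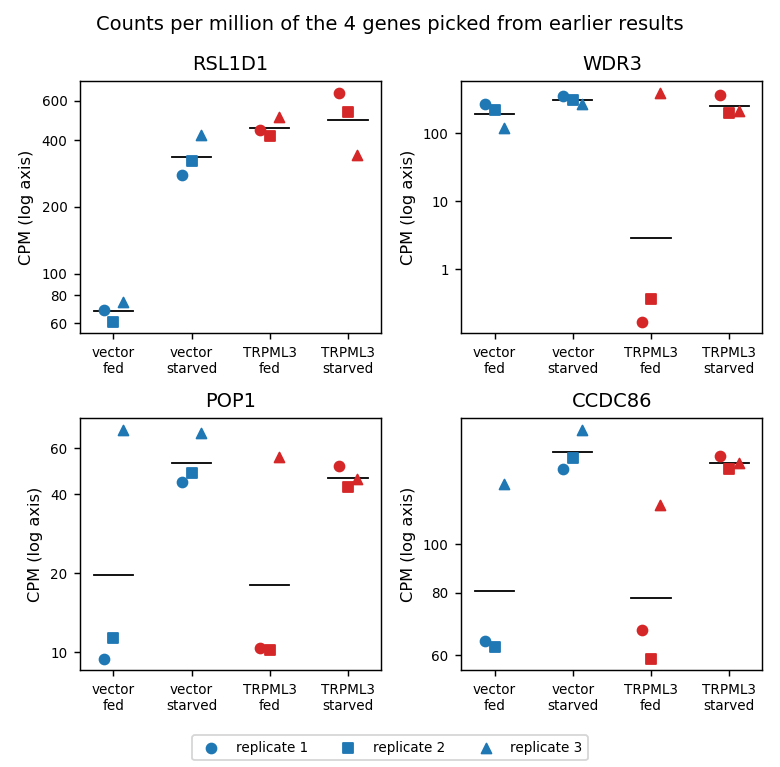
CPM on a log axis (vertical) of RSL1D1, WDR3, POP1 and CCDC86 in the 4 groups (horizontal), with 1 symbol per library, circle, square and triangle for replicates 1, 2 and 3, and a black line at the geometric mean of the 3. RSL1D1 is low in the 3 vector fed libraries, WDR3 is near 0 in TRPML3 fed replicates 1 and 2, and for POP1 and CCDC86 fed replicate 3 lies well above the other fed libraries.

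All 4 picked genes had log2 fold changes above 0 for starvation with either plasmid, but they did not share a pattern over the 12 libraries. POP1 and CCDC86 shared high values in starved libraries and in fed replicate 3, RSL1D1 was low in vector fed libraries including replicate 3, and WDR3 was low in 2 TRPML3 fed libraries.

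With the TRPML3 plasmid, members lay on both sides of 0. CPM are shares of a library, so a change in the total RNA of a cell would not be seen in them, and in these bulk samples the number of cells that express a gene and its level per cell cannot be told apart. In fed cells 22 of 50 members had a log2 fold change above 0, with a median of -0.03, against a median of -0.01 over all genes tested, 48.9% of which were above 0. When libraries were scaled by their totals alone, without the library factors of the fit, 16 were above 0. In starved cells 31 of 50 were above 0, with a median of 0.07, against -0.01 over all genes and 49.2% above 0. With totals alone 23 were above 0. The factors left out were 1.004 to 1.07 in vector fed and 0.9269 to 1.045 in TRPML3 fed libraries. In starved libraries they were 1.004 to 1.023 with vector and 0.9269 to 0.9553 with TRPML3. Leaving them out lowers values for TRPML3 over genes in general, and the 16 and 23 are not set against a share of all genes. None of the other 46 members passed an adjusted p of 0.05 by edgeR's quasi-likelihood test in fed cells, where 0 of them had an unadjusted p under 0.05, against 0.998% higher and 1.21% lower over all genes. The groups did not overlap for WDR36 and RSL1D1, which were higher with TRPML3 (3.22% of all genes), and for URB2, which was lower (3.84%). In starved cells none of the 50 passed (0.00555% of all genes did). At an unadjusted p under 0.05, RSL1D1 and NOP14 were higher and GAR1 was lower there, that is 2 and 1 of 50, against 1.09% higher and 1.11% lower over all genes.

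In fed cells the members beside RSL1D1 with the highest log2 fold changes for TRPML3 were DDX21 with 0.90 ± 0.55 and NOB1, the endonuclease that forms the mature end of the small subunit RNA, with 0.74 ± 0.58. The lowest were DDX56, a helicase of large subunit assembly, with -1.19 ± 0.89, and NOC3L with -0.89 ± 0.58. DDX21 had 734, 278 and 479 CPM in vector fed and 620, 867 and 1288 in TRPML3 fed libraries. NOB1 had 20.2, 35.1 and 53.9 CPM against 54.4, 24.2 and 103. DDX56 had 18.1, 8.20 and 62.6 against 17.7, 2.73 and 18.6, and NOC3L had 3.87, 15.7 and 5.28 against 4.25, 5.31 and 3.88. The groups overlapped for all of these, and their adjusted p by edgeR's quasi-likelihood test was 1.

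In starved cells NOP14 had a log2 fold change of 3.21 ± 1.39 and POLR1A one of 1.10 ± 0.92 for TRPML3, while GAR1, a core protein of box H/ACA ribonucleoproteins, had -1.28 ± 0.54 and POLR1B, the second subunit of RNA polymerase I, had -1.11 ± 0.72. GAR1 had 11.2, 25.2 and 33.1 CPM in vector starved and 11.3, 7.27 and 10.2 in TRPML3 starved libraries, so that 2 of the 3 vector libraries were above those with TRPML3. POLR1A had 39.1, 19.4 and 11.2 against 77.7, 55.1 and 17.1 CPM. POLR1B had 125, 80.3 and 159 CPM in vector starved and 9.25, 33.5 and 126 in TRPML3 starved libraries, so that replicate 3 was the highest in both and the groups overlapped. All 4 had an adjusted p of 1 by edgeR's quasi-likelihood test. NCL and BRIX1, a large subunit assembly factor, were the 2 members whose groups did not overlap, both higher with TRPML3 (3.02% of all genes were, and 3.55% were lower). NCL had 3440, 3510 and 3651 CPM against 3769, 3783 and 5051.

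In the comparison of starved with fed cells, most members lay above 0. In vector cells 39 of 50 had a log2 fold change above 0, with a median of 0.27, where 49.4% of all genes were above 0 with a median of -0.01. In TRPML3 cells 42 of 50 were above 0, with a median of 0.32, where 51.2% of all genes were above 0 with a median of 0.01. Without the 4 picked genes the medians were 0.23 and 0.31, with 35 and 38 of 46 above 0. The median in vector cells was 0.0756 without replicate 2 of every group, 0.148 without vector fed replicate 1, 0.463 without vector fed replicate 3 and 0.492 without replicate 3 of every group. In TRPML3 cells it was 0.196 without TRPML3 fed replicate 2, 0.194 without replicate 2 of every group, 0.659 without TRPML3 fed replicate 3 and 0.816 without replicate 3 of every group, so that the size of the shift depended on single fed libraries. No member other than RSL1D1 passed an adjusted p of 0.05 by edgeR's quasi-likelihood test in vector cells, and none did in TRPML3 cells, where 0.0% of all genes passed.

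At the level of single members, in vector cells, 2 members, RSL1D1 and CCDC86, had an unadjusted p under 0.05, both higher (2.23% of all genes were higher and 2.21% lower), and in TRPML3 cells 7 did, all higher (2.74% of all genes were higher and 2.97% lower). These were RRP12, NOP56, NCL, BOP1, BRIX1, GNL3 and CCDC86. RRP12, a HEAT-repeat protein needed for export of the small subunit, had 64.0, 39.5 and 44.4 CPM with TRPML3 when fed and 123, 124 and 84.6 when starved, without overlap. With vector it had 58.5, 52.1 and 90.8 CPM fed and 107, 119 and 75.0 starved, where replicate 3 ran against replicates 1 and 2. Its log2 fold change was 1.16 ± 0.29 with TRPML3 and 0.58 ± 0.29 with vector.

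The groups did not overlap, with starved libraries higher, for 5 members in vector cells (5.35% of all genes, with 4.57% lower) and for 5 in TRPML3 cells (5.56%). BOP1, a scaffold of large subunit assembly, and CCDC86 were among both. The others were RSL1D1, NHP2 and NOLC1 with vector and RRP12, BYSL and NOP16 with TRPML3. NHP2, a core protein of box H/ACA ribonucleoproteins, had 157, 142 and 151 CPM with vector when fed and 185, 162 and 175 when starved, a log2 fold change of 0.21 ± 0.14. POLR1B and WDR36 were lower without overlap in TRPML3 starved than in TRPML3 fed libraries, as 5.66% of all genes were. WDR36, a protein of the small subunit processome, had 275, 278 and 295 CPM fed and 256, 205 and 255 starved with TRPML3, a log2 fold change of -0.25 ± 0.14.

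At the extremes, GAR1 had a log2 fold change of 1.12 ± 0.54 and PPAN, a large subunit assembly factor, 1.09 ± 0.89 for starvation in vector cells, and NOP14 had -2.66 ± 1.36 and NOC3L -0.77 ± 0.58. In TRPML3 cells PPAN had 1.18 ± 0.89 and RRP1B, a nucleolar partner of protein phosphatase PP1, 1.16 ± 0.57, while POLR1B had -1.39 ± 0.73 and GAR1 -0.67 ± 0.54. PPAN had 13.5, 3.22 and 46.03 CPM with vector when fed and 25.3, 44.7 and 63.7 when starved, and 4.10, 8.85 and 27.3 CPM with TRPML3 when fed and 37.0, 38.9 and 15.1 when starved. Its exons overlap those of the read-through gene PPAN-P2RY11 by 1447 bases on the same strand, so its level is uncertain. RRP1B had 189, 56.0 and 198 CPM with vector when fed and 359, 392 and 168 when starved, and 125, 95.5 and 268 CPM with TRPML3 when fed and 568, 222 and 301 when starved. For both genes the starved replicates 1 and 2 of either plasmid were above the fed replicates 1 and 2, while the replicate 3 libraries overlapped. The replicates of GAR1 disagreed, and its starvation values had opposite signs in the 2 plasmid groups (unadjusted p of the interaction 0.0390 and adjusted p 1 by edgeR's quasi-likelihood test).

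**Figure D3:**
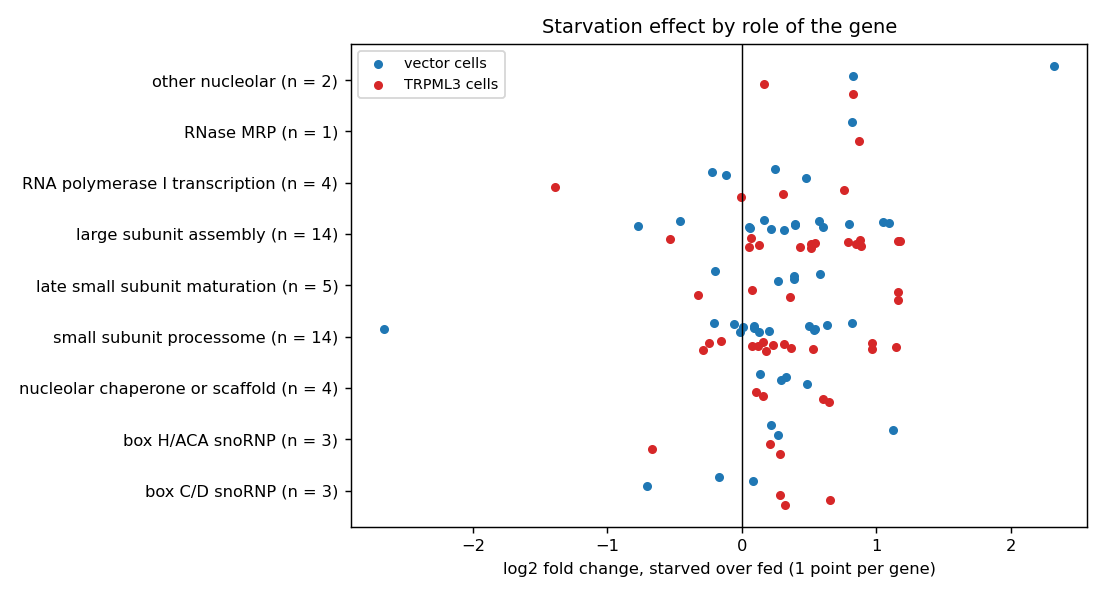
Log2 fold change of starved over fed cells (horizontal axis) for each of the 50 members, 1 point per gene and plasmid, blue for vector and red for TRPML3 cells, with the members' roles along the vertical axis. Most points lie to the right of 0, with NOP14 at -2.66 in vector cells and POLR1B at -1.39 in TRPML3 cells as the lowest of each colour.

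Averaging both plasmids uses all 12 libraries for starvation. The fit takes them as independent, although replicate 3 libraries deviated together between plasmids. The correlation of their deviations from group means over genes was 0.36 fed and 0.32 starved. SE and p-values with all 12 libraries do not allow for this. The median log2 fold change was 0.27 over the 50 members and 0.24 over the 46 that were not picked, against 0.01 over all genes tested. It was above 0 for 42 of 50 members and 38 of 46, against 50.7% of all genes. No member passed an adjusted p of 0.05 by edgeR's quasi-likelihood test (0.0% of all genes did), and the lowest adjusted p was 0.11, that of RSL1D1. At an unadjusted p under 0.05, 11 of 50 members were higher and 0 lower, against 4.66% higher and 4.79% lower over all genes. The 11 include RSL1D1 and CCDC86, which were picked for their rise. With the DESeq2 Wald test, RSL1D1 and RRP12 passed, with adjusted p of 1.07e-06 and 0.0204, where 1.59% of all genes passed. That test gave no p-value for WDR3, POP1 and NOP14.

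Of the 14 members in large subunit assembly, 13 were above 0 for average starvation, with a median of 0.44, and BOP1, NOP16, RRP1B and BRIX1 had an unadjusted p under 0.05. The 5 late small subunit factors had a median of 0.37 with 4 above 0, and RRP12 had 0.87 ± 0.21. The 4 nucleolar chaperones or scaffolds, NCL, NPM1, NOLC1 and GNL3, were all above 0 with a median of 0.35. NCL had 0.45 ± 0.18 and GNL3 0.57 ± 0.20. The box H/ACA proteins DKC1, the pseudouridine synthase dyskerin, NHP2 and GAR1 had 0.28 ± 0.11, 0.21 ± 0.10 and 0.23 ± 0.38. The 14 small subunit processome members had a median of 0.16 with 10 above 0, and none had an unadjusted p under 0.05. For RNA polymerase I transcription the median of 4 was 0.16, from -0.57 for POLR1B to 0.27 for POLR1A. The box C/D proteins NOP58, NOP56 and FBL, the methyltransferase fibrillarin, had 0.06, 0.37 and -0.19. None of these differences between roles was tested.

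Other members spread over the same range. BYSL, NOP2, NAT10, NOC4L, WDR43, NOL6 and UTP4 had log2 fold changes for average starvation from 0.72 ± 0.40 (BYSL, a late small subunit factor) to 0.41 ± 0.21 (UTP4, a processome subunit). DDX10, WDR12, RRP9, MYBBP1A, NOC2L, UTP15 and NOB1 had values from 0.15 ± 0.11 (DDX10, a helicase) down to 0.03 ± 0.41 (NOB1). All 14 had an unadjusted p over 0.05.

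Replicate 3 was left out of every group because the members were high in its fed libraries, as described above. Leaving it out therefore raises their starved over fed values by construction, and the values below describe replicates 1 and 2 and are no separate evidence of a response to starvation. Leaving out replicate 1 or replicate 2 of every group in the same way gave 0 members past an adjusted p of 0.05 (0.00555% and 0.0% of all genes). Without replicate 3, 14 of the 50 members passed by edgeR's quasi-likelihood test and all 14 were higher, where 4.48% of all genes passed and 2.54% passed as higher. They were the 4 picked genes and 10 others. Without replicate 3 of every group, the median over the 50 was 0.61 and over the 46 it was 0.55, with 40 of 46 above 0, against -0.02 over all genes, 48.5% of which were above 0. At an unadjusted p under 0.05, 29 members, the 4 picked genes among them, were higher and 2 lower, against 12.2% and 11.0% of all genes. The 4 starved libraries did not overlap with the 4 fed ones for 23 members that were higher, 21 of them among the 46 not picked. The same held for WDR75, which was lower, and for 10.1% of all genes in each direction. With only the 2 fed replicate 3 libraries left out, a choice made after seeing the data, 8 passed (1.84% of all genes), namely the 4 picked genes with RRS1, LTV1, NOP16 and DKC1, and the median over the 50 was 0.580.

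The 10 others came from 6 roles. RRS1, a large subunit factor that brings the 5S particle to the ribosome, had 31.2, 34.0 and 102 CPM with vector when fed and 84.2, 77.1 and 87.6 when starved, and 35.9, 27.9 and 85.3 CPM with TRPML3 when fed and 106, 99.4 and 68.6 when starved. Fed replicate 3 was within the range of the 6 starved libraries, and replicates 1 and 2 were below it. Its log2 fold change for average starvation was 0.73 ± 0.36 with all libraries and 1.51 ± 0.13 without replicate 3.

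LTV1, an export factor of the small subunit whose start region is printed above, had 75.7, 104 and 363 CPM with vector when fed and 206, 238 and 266 when starved, and 114, 92.5 and 332 CPM with TRPML3 when fed and 179, 270 and 240 when starved. Its fed replicate 3 libraries were the 2 highest of the 12. The log2 fold change went from 0.37 ± 0.42 to 1.22 ± 0.19 without replicate 3.

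PES1, which forms a complex with BOP1 and WDR12 in large subunit assembly, had 33.7, 70.5 and 196 CPM in vector fed and 155, 196 and 43.9 in vector starved libraries. With TRPML3 it had 66.8, 42.9 and 144 CPM fed and 120, 187 and 131 starved. Replicate 3 was high when fed in both groups and low when starved with vector. The log2 fold change was 0.59 ± 0.49 with all libraries and 1.63 ± 0.31 without replicate 3. Its partner BOP1 had 0.41 ± 0.16 with all libraries.

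GNL3, NOP16 and DKC1 showed the pattern at a smaller scale. GNL3 had 310, 368 and 489 CPM with vector when fed and 502, 439 and 689 when starved, and 319, 310 and 552 CPM with TRPML3 when fed and 533, 544 and 773 when starved. Replicate 3 was the highest in all 4 groups, and fed and starved libraries overlapped through it. NOP16, a large subunit assembly factor, had 44.1, 49.3 and 76.5 CPM with vector when fed and 70.0, 67.1 and 86.7 when starved, and 51.0, 48.0 and 66.3 CPM with TRPML3 when fed and 74.8, 76.7 and 85.2 when starved. DKC1 had 402, 377 and 517 CPM with vector when fed and 545, 539 and 481 when starved, and 399, 390 and 526 CPM with TRPML3 when fed and 545, 553 and 500 when starved, so that its replicate 3 libraries, fed and starved, lay close together. Their log2 fold changes without replicate 3 were 0.64 ± 0.10, 0.60 ± 0.11 and 0.49 ± 0.07.

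**Figure D4:**
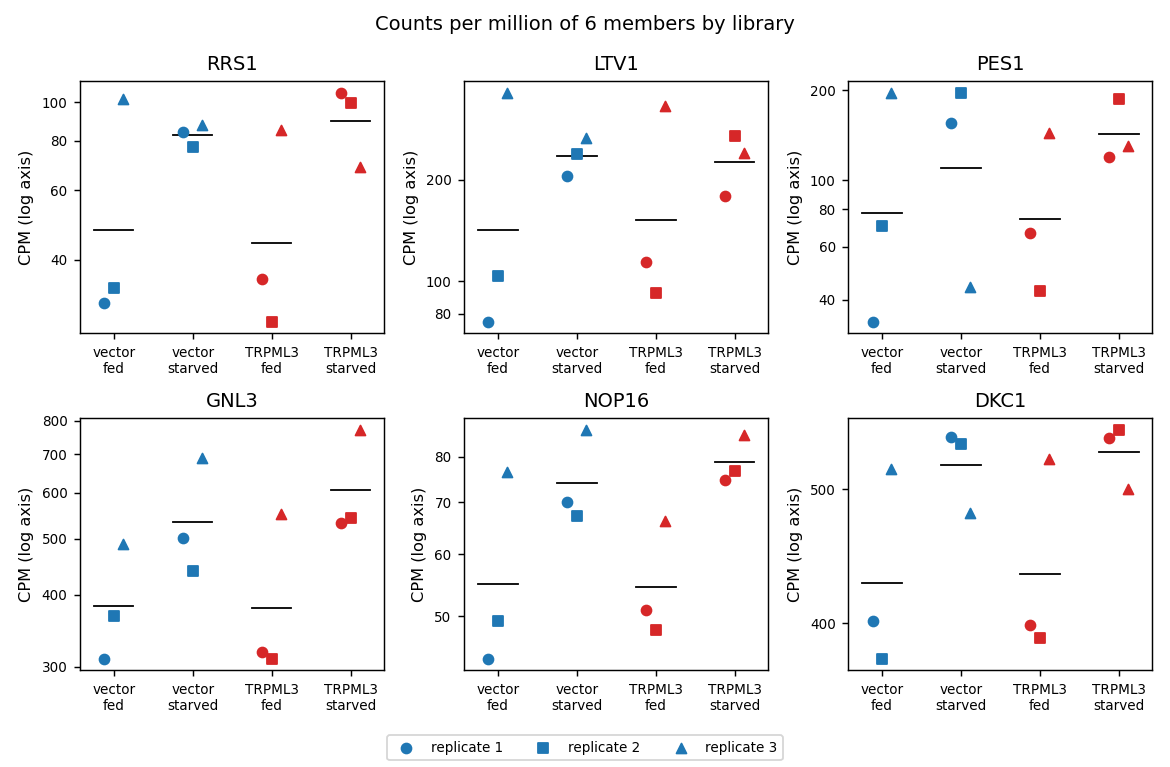
CPM on a log axis (vertical) of 6 members, chosen after their values were seen, in the 4 groups (horizontal), with circle, square and triangle for replicates 1, 2 and 3 and a black line at the geometric mean of the 3. In all 6 the fed triangles lie above the other fed libraries, as for LTV1 with 363 and 332 CPM, the 2 highest of its 12 libraries.

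The remaining 4 were DDX18, POLR1A, UTP20 and RRP12. For the first 3, replicate 3 was high in fed and low in starved libraries. DDX18, a helicase of large subunit assembly, had 234, 274 and 468 CPM with vector when fed and 428, 481 and 106 when starved, and 179, 151 and 461 CPM with TRPML3 when fed and 395, 284 and 145 when starved. The log2 fold change was 0.06 ± 0.42 with all libraries and 0.95 ± 0.14 without replicate 3. UTP20, a large scaffold of the small subunit processome, had 60.8, 79.0 and 201 CPM with vector when fed and 142, 153 and 68.0 when starved, and 88.4, 74.4 and 139 CPM with TRPML3 when fed and 181, 122 and 50.4 when starved. In both genes replicate 3 was higher fed than starved, and replicates 1 and 2 were higher starved than fed.

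POLR1A had 22.2, 15.9 and 43.3 CPM in vector fed and 7.46, 7.11 and 74.1 in TRPML3 fed libraries. Its log2 fold change went from 0.27 ± 0.64 to 1.92 ± 0.29 without replicate 3, and that of UTP20 from 0.16 ± 0.39 to 1.00 ± 0.17. For RRP12 it went from 0.87 ± 0.21 to 1.15 ± 0.18.

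**Figure D5:**
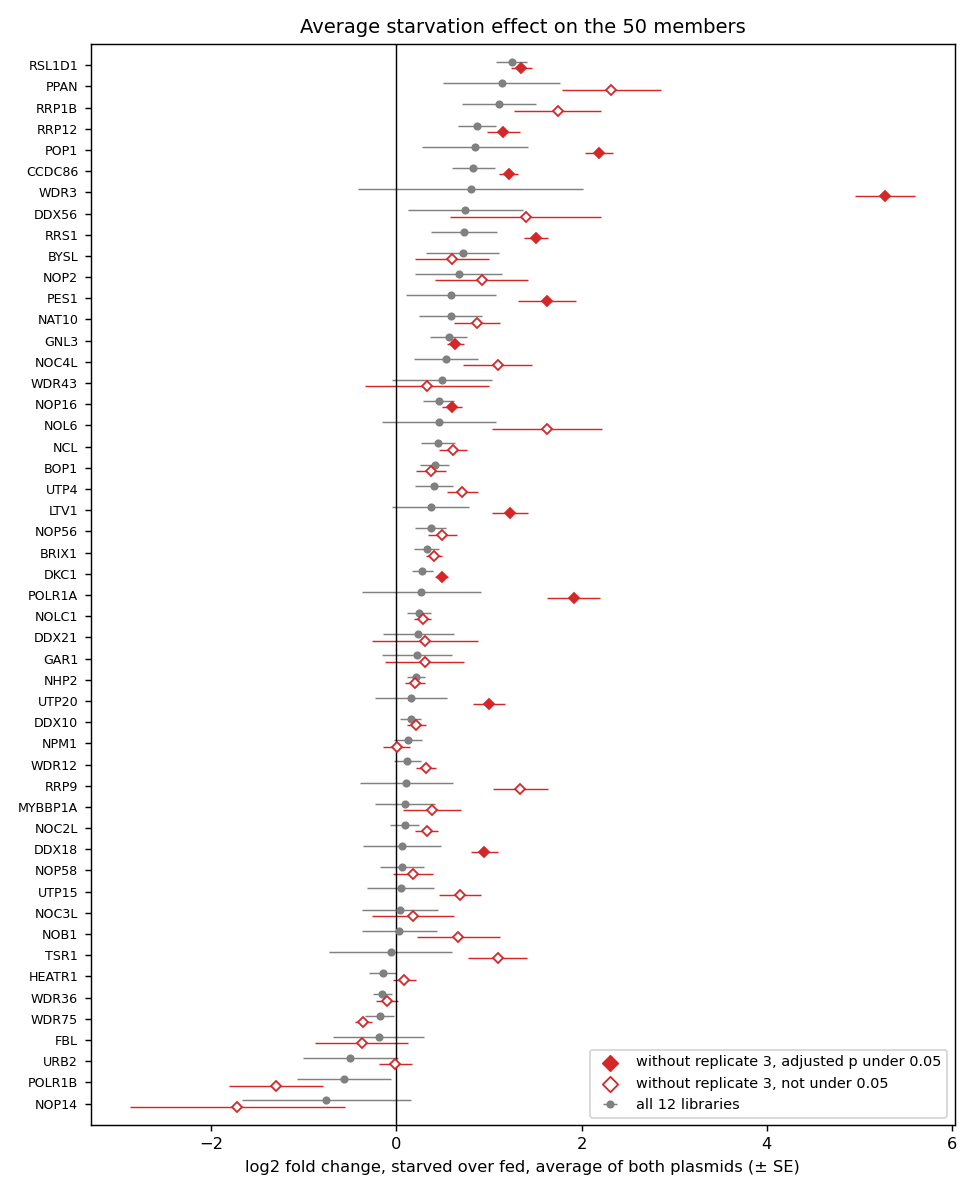
Log2 fold change of starved over fed cells averaged over both plasmids (horizontal axis, bars ± SE) for each of the 50 members (vertical axis), in grey with all 12 libraries and in red without replicate 3 of every group. Filled diamonds mark the 14 members with an adjusted p under 0.05 without replicate 3, all to the right of 0. With all 12 libraries none had one, and leaving out replicate 3 by itself raises genes that were high in its fed libraries.

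The 23 members without overlap included 12 that did not pass, among them BOP1, NCL, NOLC1, PPAN and RRP1B, and also NAT10, an RNA acetyltransferase, with 31.4 and 46.8 CPM in vector fed replicates 1 and 2, 56.9 and 39.8 with TRPML3, and 67.5, 73.6, 111 and 64.6 in the starved ones. In contrast, RSL1D1, WDR3 and POLR1A passed although fed and starved libraries overlapped over both plasmids. The log2 fold change of WDR3, 5.28 ± 0.32, was the mean of 10.07 ± 0.56 in TRPML3 cells and 0.49 ± 0.37 in vector cells.

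Several members had values near or below 0. NPM1, the most abundant of them, had a log2 fold change for average starvation of 0.12 ± 0.15 with all libraries and 0.00 without replicate 3. HEATR1, WDR36, WDR75 and NOP14 of the small subunit processome, TSR1, FBL, URB2 and POLR1B were below 0 with all libraries. WDR75 had 132, 152 and 163 CPM with vector when fed and 113, 108 and 166 when starved, and 155, 161 and 162 CPM with TRPML3 when fed and 120, 124 and 187 when starved. Its value without replicate 3 was -0.36 ± 0.09.

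The difference between the starvation responses of TRPML3 and vector cells had a median of 0.06 over the members, with 30 of 50 above 0, against 0.00 and 50.1% over all genes. No member passed an adjusted p of 0.05 by edgeR's quasi-likelihood test (0.0% of all genes did). RSL1D1 had -2.16 ± 0.33, with an adjusted p of 0.978 there and of 0.000118 with the DESeq2 Wald test, which 0.15% of all genes passed. RSL1D1 and GAR1 were the 2 members with an unadjusted p under 0.05, both with a smaller value in TRPML3 cells, against 0.915% of all genes in that direction.

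The 121 other ribosome biogenesis genes, which include further processome, exosome, RNase P and polymerase I genes, were measured for comparison. For average starvation, 91 of them had a log2 fold change above 0 (50.7% of all genes were) with a median of 0.21, and at an unadjusted p under 0.05, 20 were higher and 2 lower (4.66% and 4.79% of all genes). None passed an adjusted p of 0.05 by edgeR's quasi-likelihood test with all libraries (0.0% of all genes). Without replicate 3, 14 of 121 passed, all higher, where 4.48% of all genes passed and 2.54% as higher. Their medians for TRPML3 were 0.05 in fed and 0.03 in starved cells. The extremes were DDX51, a helicase, at -2.22 ± 0.92 for TRPML3 in fed cells and 3.29 ± 0.96 for starvation in TRPML3 cells, NMD3, the export adaptor of the large subunit, at 1.60 ± 0.50 for TRPML3 in starved cells, and POLR1E, a polymerase I subunit, at -1.96 ± 0.77 for starvation in vector cells. EXOSC6 of the exosome gave the other extremes, from -2.72 ± 1.85 to 2.48 ± 1.83, at levels from 0.023 to 8.27 CPM.

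The 18 members with CACGTG near the start had a median log2 fold change of 0.39 for average starvation, with 16 above 0. The 22 members whose promoter lacked it had 0.18 with 17 above 0, and the 10 with no promoter in the table had 0.57 with 9 above 0. The difference between these sets was not tested. NOP14, FBL, GAR1 and NOC3L, whose replicates disagreed or whose values were below or near 0, also hold the motif.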

How the data were processed

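The authors deposited a table of whole-number counts of each gene in the 12 libraries, along with a normalized signal that, per the labels and its values, the authors made from those counts with 1 factor per library. That signal served only in an alternative. The tools FastQC, fastp, HISAT2, StringTie and DESeq2 and the build GRCh38 are named in the submitters' processing notes. Their roles, the annotation release, the use of strand and whether the counts come from reads directly are not given in the sources used here, so reads of overlapping genes cannot be told apart (26 of 48 members share exon bases with another gene of GENCODE 29).

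Counts were fitted with edgeR 4.0.16 in R 4.3.3 (TMM, filterByExpr on group, robust quasi-likelihood fit with 1 coefficient per group, 8 residual degrees of freedom, common biological coefficient of variation 0.527), with Benjamini-Hochberg adjustment over 18030 genes at 0.05. The fit was run on simulated counts with known changes. Their spread was smaller than that of these data and they held no replicate 3 shift. That run checks the code and does not show how the fit performs at the spread seen here. Contrasts were TRPML3 in fed and in starved cells, starvation with each plasmid, their difference and their averages. SE is the log2 fold change divided by the root of its F. Alternatives used other scalings, the DESeq2 1.42.0 Wald test, other filters, limma 3.58.1, a replicate block, the 6 libraries compared, and libraries left out. The members and lists were chosen with earlier results of these data known. Members described library by library were the 4 picked, any past 0.05, the 2 highest and 2 lowest of the other 46 in each pairwise contrast, and others chosen after their values were seen.

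Same-numbered libraries were checked for pairing by correlating deviations from group means over genes. Between plasmids r was 0.12, 0.17 and 0.36 in fed and 0.12, 0.11 and 0.32 in starved cells for replicates 1, 2 and 3. Replicate 1 against replicate 2 had 0.12 and 0.085 in fed and 0.08 and 0.14 in starved cells. Replicate 3 against replicates 1 and 2 had -0.25 to -0.16. The deviations of a gene in a group sum to 0, so these negative values follow in part from the shared deviation of replicate 3. The same holds for the positive values among replicates 1 and 2. Only replicate 3 stood apart, by its r of 0.36 and 0.32, and the values do not show that replicates 1 and 2 are paired between plasmids. Between same-numbered fed and starved libraries r was between -0.086 and 0.0093. Positions come from GENCODE 29 and promoters from RefSeq.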

Additional observations from a re-analysis of the deposited data

How the results depend on the processing

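Each result was recomputed under other scalings, filters and tests, and with libraries left out. Without single libraries or replicate numbers, the members past an adjusted p of 0.05 numbered 0 to 2 for TRPML3 in fed cells, 0 to 1 for starvation in vector cells, 0 to 1 for starvation in TRPML3 cells, 0 to 1 for the difference between the responses, 0 to 2 for average TRPML3 and 0 to 14 for average starvation. Of all genes, at most 0.0222%, 0.0111%, 0.0166%, 0.0166%, 0.0333% and 4.48% passed in these fits, in the same order. The member medians ran for TRPML3 in fed cells from -0.345 (TRPML3 fed replicate 3 left out) to 0.263 (vector fed replicate 3 left out), from 0.0756 to 0.492 for starvation in vector cells, from 0.194 to 0.816 for starvation in TRPML3 cells, from -0.178 to 0.465 for the difference, and from 0.126 (without replicate 2) to 0.606 (without replicate 3) for average starvation. Without both fed replicate 3 libraries, a choice made after seeing the data, the medians were 0.659 for starvation in TRPML3 cells and 0.580 for average starvation, and 1 member passed for the former and for the difference (0.00555% of all genes in each), 8 for the latter (1.84%) and 0 for starvation in vector cells (0.0%). The additional calls for TRPML3 and for the difference were WDR3, in fits without TRPML3 fed replicate 3. The cause was not tested.

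With the replicate number as a block, RSL1D1 no longer passed in any contrast. Thus 0 members did for TRPML3 in fed cells (0.0% of all genes passed) or on average (0.00555%). Nor did any for starvation with vector (0.0%), and the block changed no other count. The log2 fold changes of RSL1D1 with the block were 2.74, 1.66 and 2.32, in the same order. The block gives each replicate number a shift shared by all 4 groups, so it ties fed to starved libraries as well as the 2 plasmids. It cannot describe a replicate 3 shift that is present in fed groups only. In a fit of only the 6 libraries compared, 0 passed for starvation in vector cells, and the share of all genes is not given for it. The DESeq2 Wald test called 1 member for the difference (0.15% of all genes) and 2 for average starvation (1.59%). There edgeR called 0 (0.0% of all genes in both). The DESeq2 test gave no p-value for WDR3, POP1 and NOP14. Other scalings and filters changed no count of members called. Every member except WDR3 had at least 42 counts in each library, so counting error was small beside the spread between replicates.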
